A study of Zea mays with 12 samples.

Results

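The transcripts described here peaked at 24 h of water stress in the primary root tip of maize (Zea mays, inbred line FR697). They were chosen on measured abundance, in CPM (the raw count of a gene per 1000000 counts on all genes of the library). A member had a mean of at least 5 CPM in water-stressed tips at 24 h (WS24) and at least 0.5 CPM in well-watered tips at 24 h (WW24). Its WS24 mean was also at least 2 times that of WW24 and at least 1.5 times that of water-stressed tips at 48 h (WS48), and each of the 3 WS24 libraries lay above all 9 other libraries. Of 42976 features in the table, 205 met these conditions, 2 of them, a dehydrin and a lipoxygenase, were left out, and 203 were members. They comprised 201 annotated nuclear genes and 2 assembled transcripts, MSTRG.19602 and MSTRG.12097. All 203 passed the filter on low counts, and each also had a mean count of at least 10 in each of the other 3 groups. For comparison, 1183 features satisfied the level and fold conditions at 24 h with every WS24 library above every well-watered library. Of these, 958 had a WS24 mean less than 1.5 times that of WS48, and another 20 overlapped WS48.

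The tip of a growing root holds the dividing cells of the meristem and, behind them, the elongation zone, where cells lengthen by loosening their walls while taking up water. When soil dries, roots accumulate abscisic acid (ABA), which inactivates type 2C protein phosphatases (PP2Cs) through its receptors, frees SnRK2 kinases and activates ABF transcription factors that bind ABA-responsive promoter elements. Cells also lower their osmotic potential by storing sugars and other solutes, and alter wall, membrane and protective proteins.

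Dark-grown seedlings were kept at 29 °C in vermiculite wetted with a 1 mM CaSO4 solution. Transplanting brought them to a water potential of −0.02 MPa (WW) or −1.6 MPa (WS), and tips were harvested after 24 or 48 h. WW24, WS24, WW48 and WS48 thus had 3 libraries each, 12 in all. Replicates came from independent experiments, per the study's methods, each a pool of 50 to 100 mg of tissue. Harvested tips measured 12 mm in WW and 7 mm in WS roots to hold the whole elongation zone, so segment length and treatment cannot be told apart in any comparison of WS with WW. These were bulk samples, in which more cells of a type and more RNA per cell cannot be told apart.

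Libraries held 40005384 to 54863708 gene counts. Reads not aligned made up 12.7 to 15.0% of all reads the counter reported in 11 libraries and 23.1% in WS24 replicate 3. Across members, the ratio of that library to the mean of the other WS24 libraries had a median of 1.01, and it was the highest of its group in 87 members and the lowest in 70. Among well-watered libraries, WW24 replicate 1 was at least 2 times both others of its group in 21 members and WW48 replicate 2 in 16, against 0 to 4 members for any other library. Log2 changes and their SE are from edgeR's quasi-likelihood fit of 26746 features with TMM scaling, p-values are Benjamini-Hochberg adjusted over all of them, and a transcript was called when its adjusted p did not exceed 0.05 and its log2 change was 1 or more in either direction.

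The peak was of moderate height in most members. Mean abundance in WS24 ranged from 5.17 to 2949 CPM, with a median of 17.5 CPM, and its SD was 14.1% of the mean at the median. The ratio of WS24 to WW24 means ran from 2.00 to 175 (median 3.60) and that of WS24 to WS48 from 1.5003 to 4.73 (median 1.90). In the same fit, 176 of 203 members were called higher in WS24 than in WW24, where 9.27% of all features were, and 54 were called lower in WS48 than in WS24, where 0.568% of all features were. The rule used both contrasts, so these counts describe the choice of members and no test is read from them. The lowest WS24 library stood 1.01 to 3.25 times above the highest of the other libraries, with a median of 1.39. The plot of all members shows each library separately, with every WS24 library highest by the rule.

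**Figure D1:**
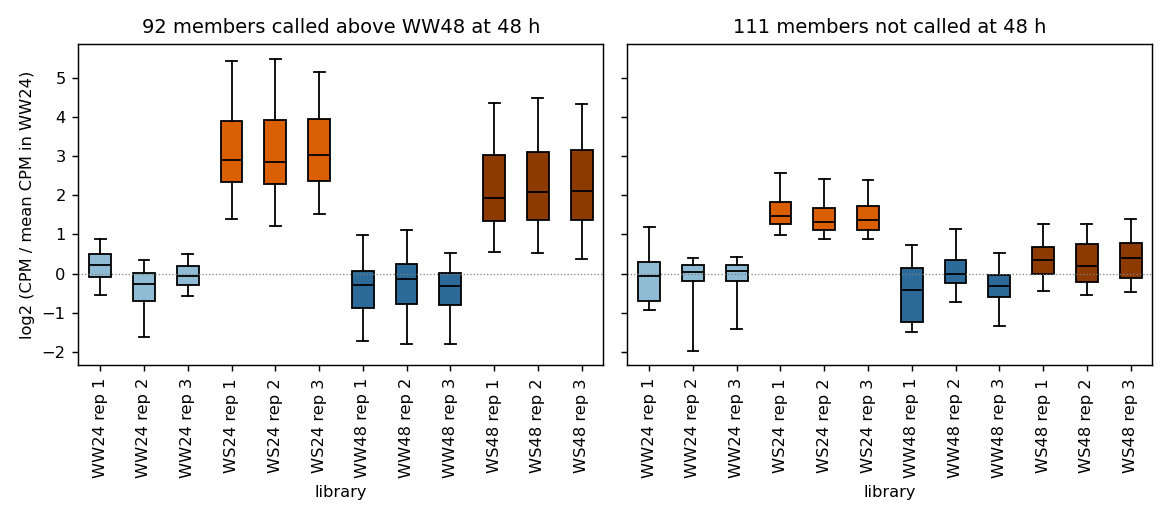
Log2 ratio of each member's CPM to its WW24 mean (vertical axis) in each of the 12 libraries (horizontal axis), for the 92 members called above WW48 at 48 h (left) and the 111 not called (right). Boxes span the quartiles with the median as a line and whiskers run from the 5 to the 95% quantile over members, and log2 ratios below −4 are drawn at −4. The 3 WS24 boxes are the highest in both panels, by the choice of members, and the WS48 boxes stay well above WW48 only on the left.

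Of the 203 members, 72 had a description, 70 from the study's table of transcripts changed at 48 h and 2 from its ortholog table, and 131 are named by identifier only. The 70 had been selected by the study on these same libraries for a change at 48 h, so their calls in WS48 vs WW48 are not independent evidence, and described and undescribed members differ by that selection. The gene lists below hold described genes only, most of them likewise selected for changes in these libraries. Most genes of the lists were therefore called in one direction or the other, and list counts are descriptions that cannot be read against the 9.27% (24 h) and 7.20% (48 h) of all features called higher.

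Genes of ABA signalling were among the described members. Zm00001d020100 and Zm00001d028574 are both described as highly ABA-induced PP2C gene 2, a phosphatase that in Arabidopsis restrains ABA signalling. Zm00001d020100 was at 0.947, 0.773 and 0.514 CPM in WW24, 33.6, 33.4 and 46.8 CPM in WS24, 1.55, 0.970 and 0.723 CPM in WW48 and 23.6, 25.4 and 24.1 CPM in WS48. It was at 1.55 CPM or less in every well-watered library and retained 62.6% of its 24 h difference at 48 h, where retention is the WS48 minus WW48 difference as a percentage of the WS24 minus WW24 difference. In WS48 vs WW48 it increased (log2 4.34 ± 0.25 SE, adjusted p = 6.36e-08). Zm00001d028574 was at 2.10, 1.17 and 1.18 CPM in WW24, 32.00, 31.6 and 34.6 CPM in WS24, 3.94, 2.10 and 5.24 CPM in WW48 and 19.7, 19.98 and 23.1 CPM in WS48, and it increased as well (log2 2.35 ± 0.25 SE, adjusted p = 1.26e-05). All 6 stressed libraries lay above all 6 well-watered libraries for both genes. Both were members of a list of 14 described PP2C genes, of which 12 were called higher and 1 lower in WS24 vs WW24, and 12 higher and 2 lower in WS48 vs WW48.

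A pair of members is described as ABRE-binding factor 2 (ABF2), a bZIP factor that acts downstream of ABA. Zm00001d044940 was at 4.31, 1.90 and 2.08 CPM in WW24, 18.5, 21.4 and 21.4 CPM in WS24, 2.62, 2.70 and 1.92 CPM in WW48 and 12.5, 11.7 and 13.3 CPM in WS48, a WS24 to WW24 ratio of 7.40, and increased in WS48 vs WW48 (log2 2.24 ± 0.24 SE, adjusted p = 1.23e-05). Zm00001d037170 was less abundant, at 1.03, 0.445 and 0.729 CPM in WW24, 10.5, 8.59 and 8.40 CPM in WS24, 0.693, 0.808 and 0.475 CPM in WW48 and 4.65, 6.07 and 4.85 CPM in WS48, and increased too (log2 2.84 ± 0.26 SE, adjusted p = 3.36e-06). Every stressed library lay above every well-watered library in both. Zm00001d039065, described as G-box binding factor 3, a bZIP factor that is ABA-inducible in Arabidopsis, was at 8.20, 5.95 and 5.25 CPM in WW24, 42.3, 38.1 and 42.8 CPM in WS24, 8.95, 6.28 and 5.36 CPM in WW48 and 21.8, 27.4 and 25.9 CPM in WS48, with a 48 h change of log2 1.73 ± 0.18 SE, adjusted p = 1.24e-05. The list of ABA synthesis and ABF genes held 8 described genes, 7 of them called higher and 1 lower at each time. Zm00001d027443, described as beta-hydroxylase 1, whose Arabidopsis counterpart hydroxylates carotenoids that lie upstream of ABA, had means of 3.01 ± 0.769, 15.8 ± 1.85, 2.57 ± 0.908 and 10.3 ± 1.32 CPM (SD, n = 3) in WW24, WS24, WW48 and WS48.

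Genes of sugar and starch metabolism included the most abundant member. Zm00001d019163, described as seed imbibition 2, a name that in Arabidopsis belongs to an alpha-galactosidase acting on raffinose, was at 236, 92.7 and 109 CPM in WW24, 2737, 2836 and 3273 CPM in WS24, 119, 189.6 and 113 CPM in WW48 and 1669, 1591 and 2061 CPM in WS48. It stood 20.2 times above WW24 at 24 h and increased in WS48 vs WW48 (log2 3.53 ± 0.31 SE, adjusted p = 2.32e-06), with 58.3% of the 24 h difference retained. The highest well-watered library, WW24 replicate 1, was more than 2 times both other WW24 libraries, yet lay far below every stressed library.

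Sucrose synthase cleaves sucrose into UDP-glucose and fructose, and 2 members carry that name. Zm00001d029091 (sucrose synthase 3) was at 16.2, 12.2 and 11.3 CPM in WW24, 169.9, 141 and 150.1 CPM in WS24, 14.4, 11.96 and 14.4 CPM in WW48 and 98.2, 96.1 and 108 CPM in WS48, and its 48 h change was log2 2.76 ± 0.12 SE, adjusted p = 6.06e-09. Zm00001d029087 (sucrose synthase 1) was at 3.47, 2.11 and 2.19 CPM in WW24, 28.6, 26.4 and 28.2 CPM in WS24, 2.39, 2.40 and 2.17 CPM in WW48 and 16.1, 15.4 and 18.8 CPM in WS48, with a 48 h change of log2 2.72 ± 0.15 SE, adjusted p = 6.02e-08. They retained 62.1% and 57.4% of their 24 h differences, and stressed and well-watered libraries did not overlap in either. On the synthetic side, Zm00001d042353 (sucrose phosphate synthase 3F) was at 3.68, 4.17 and 4.37 CPM in WW24, 27.98, 25.1 and 23.8 CPM in WS24, 1.91, 3.16 and 3.28 CPM in WW48 and 18.01, 15.03 and 17.02 CPM in WS48. It retained 64.4% of its 24 h difference and increased in WS48 vs WW48 (log2 2.47 ± 0.17 SE, adjusted p = 3.39e-07). All 5 members of the sucrose and starch list increased at 48 h, the fifth being Zm00001d000002 (starch synthase 3, log2 2.10), whereas the 30 genes of the list split into 16 higher and 14 lower.

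Zm00001d039131, annotated as a glucose-1-phosphate adenylyltransferase, the enzyme that makes ADP-glucose for starch, was at 7.03, 6.37 and 5.12 CPM in WW24, 78.1, 74.6 and 74.3 CPM in WS24, 3.65, 5.17 and 5.18 CPM in WW48 and 51.04, 50.8 and 44.2 CPM in WS48. Its 24 h ratio was 12.3 and its 48 h change log2 3.26 ± 0.13 SE, adjusted p = 3.22e-09. Zm00001d039499 (phosphofructokinase 3, of glycolysis) had means of 1.92 ± 1.14, 31.02 ± 1.09, 3.32 ± 1.37 and 20.3 ± 1.99 CPM (SD, n = 3) in WW24, WS24, WW48 and WS48, and Zm00001d048776 (polyol/monosaccharide transporter 5), the only member of 11 sugar transport genes, had means of 5.14 ± 1.88, 46.9 ± 11.5, 5.58 ± 1.61 and 24.3 ± 1.25 CPM (SD, n = 3) in WW24, WS24, WW48 and WS48. Both increased in WS48 vs WW48, by 2.48 and 2.00 on the log2 scale.

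**Figure D2:**
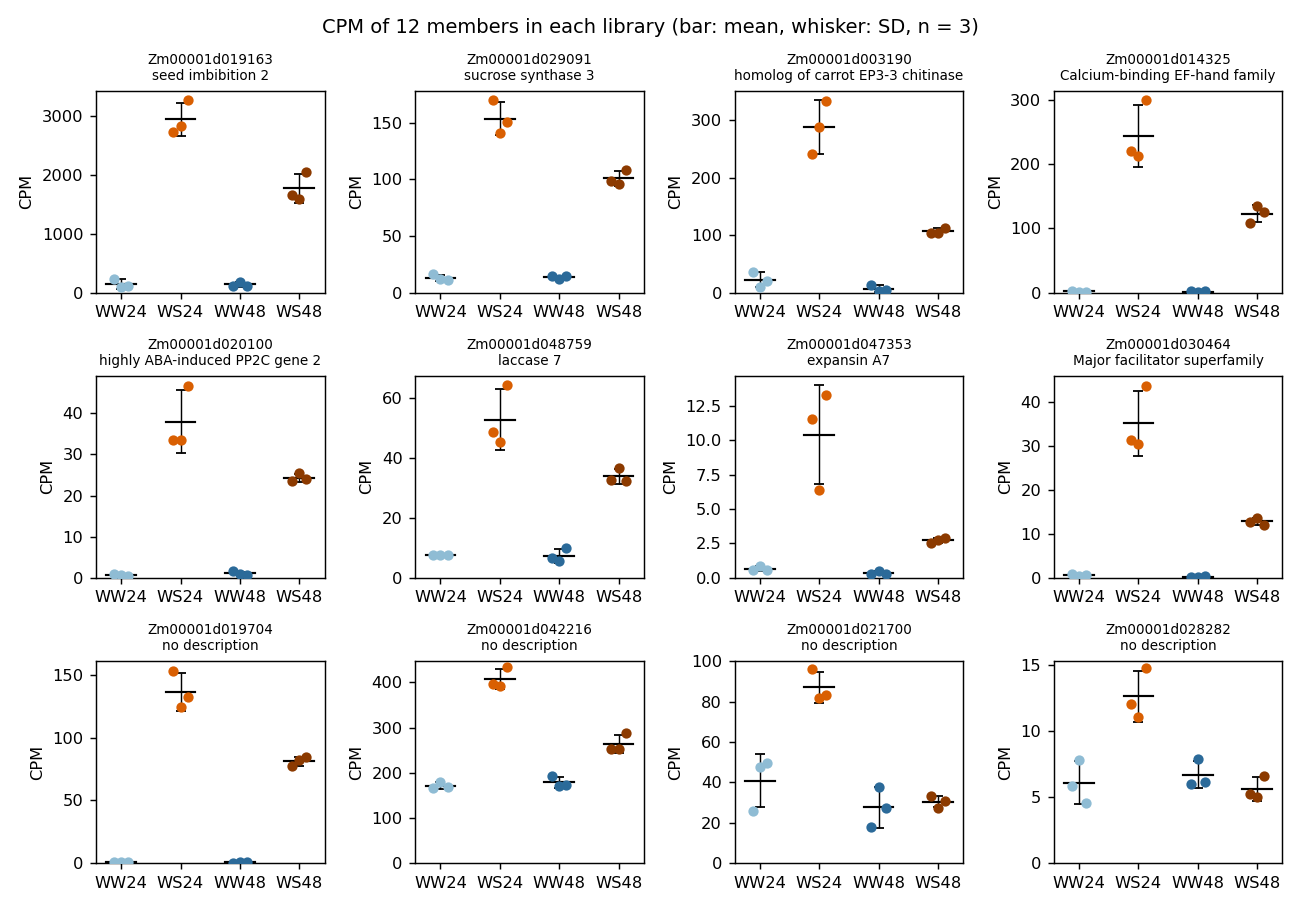
CPM (vertical axes, from 0) of 12 members in the 3 libraries of each group, as points with the mean as a bar and the SD as a whisker (n = 3). The 8 described members in the upper rows stay above WW48 at 48 h, as do Zm00001d019704 and, with a smaller gap, Zm00001d042216, whereas WS48 and WW48 overlap in Zm00001d021700 and Zm00001d028282.

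Calcium and phosphoinositide genes showed large ratios. Zm00001d014325, described as a calcium-binding EF-hand protein, was at 2.99, 1.73 and 1.72 CPM in WW24, 219.7, 212 and 299 CPM in WS24, 1.90, 1.25 and 1.97 CPM in WW48 and 108, 134 and 126 CPM in WS48. Its WS24 mean was 113 times that of WW24, the highest ratio of a described member, and it increased in WS48 vs WW48 (log2 6.03 ± 0.23 SE, adjusted p = 2.16e-09). It was the only member of 33 described calcium signalling genes, which otherwise leaned the other way, with 7 called higher and 17 lower at 24 h. Zm00001d002940, described as a phosphatidylinositol-4-phosphate 5-kinase, which phosphorylates a membrane lipid rather than proteins, was at 7.51, 8.79 and 6.60 CPM in WW24, 164, 145 and 134 CPM in WS24, 6.63, 12.1 and 6.51 CPM in WW48 and 82.6, 81.7 and 96.04 CPM in WS48. It fell under the list of 114 protein kinase descriptions by its name, was the only member there, and had a 48 h change of log2 3.24 ± 0.20 SE, adjusted p = 1.58e-07. Zm00001d007363, described as somatic embryogenesis receptor-like kinase 1, had means of 1.999 ± 0.893, 21.2 ± 7.54, 2.16 ± 0.886 and 7.32 ± 5.90 CPM (SD, n = 3) in WW24, WS24, WW48 and WS48, and its WS48 libraries ranged from 3.41 to 14.1 CPM. It increased with a wide error (log2 1.61 ± 0.51 SE, adjusted p = 0.0237).

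Wall genes formed the largest group. Expansins loosen walls during growth, and 3 were members. Zm00001d027718 (expansin 11) was at 7.89, 8.86 and 8.32 CPM in WW24, 36.00, 29.3 and 49.9 CPM in WS24, 7.67, 7.83 and 10.04 CPM in WW48 and 21.7, 22.4 and 19.9 CPM in WS48 and increased in WS48 vs WW48 (log2 1.199 ± 0.18 SE, adjusted p = 0.000173). Zm00001d029913 (expansin B2) was at 1.24, 0.515 and 2.96 CPM in WW24, 33.2, 31.6 and 40.7 CPM in WS24, 0.893, 0.877 and 0.701 CPM in WW48 and 20.8, 20.3 and 15.5 CPM in WS48, with a 48 h change of log2 4.38 ± 0.41 SE, adjusted p = 4.29e-06. Zm00001d047353 (expansin A7) returned furthest of the 3 toward well-watered levels. It was at 0.568, 0.890 and 0.536 CPM in WW24, 11.5, 6.38 and 13.3 CPM in WS24, 0.292, 0.508 and 0.294 CPM in WW48 and 2.55, 2.78 and 2.89 CPM in WS48, retained 24.4% of the 24 h difference and still increased at 48 h (log2 2.79 ± 0.34 SE, adjusted p = 3.36e-05).

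Laccases are copper oxidases that polymerise monolignols in secondary walls. Zm00001d048759 (laccase 7) was at 7.64, 7.54 and 7.70 CPM in WW24, 48.8, 45.5 and 64.5 CPM in WS24, 6.60, 5.52 and 10.04 CPM in WW48 and 32.6, 36.9 and 32.3 CPM in WS48 and increased in WS48 vs WW48 (log2 2.07 ± 0.19 SE, adjusted p = 3.44e-06). Zm00001d043019 (laccase 12) was at 0.736, 0 and 1.16 CPM in WW24, 33.6, 36.5 and 20.7 CPM in WS24, 0.693, 0.854 and 0.181 CPM in WW48 and 12.8, 16.5 and 9.96 CPM in WS48, and its 48 h change was log2 4.36 ± 0.59 SE, adjusted p = 8.13e-05. A second gene described as laccase 7, Zm00001d042848, was at 7.43, 0.562 and 1.35 CPM in WW24, 26.2, 25.1 and 25.9 CPM in WS24, 2.15, 10.9 and 1.60 CPM in WW48 and 14.8, 15.97 and 19.5 CPM in WS48. Its groups did not overlap between WS48 and WW48, but WW48 replicate 2 stood apart, as did WW24 replicate 1, and the change of log2 1.67 ± 0.72 SE, adjusted p = 0.0814 was not called. Of 63 genes in the list of expansins and wall enzymes, 7 were members and 6 of those increased at 48 h, the sixth being Zm00001d004448, a pectin lyase-like protein (log2 2.46). The whole list split into 29 higher and 22 lower at 24 h. Outside it, Zm00001d022349 (galacturonosyltransferase-like 4) and Zm00001d022516 (a hydroxyproline-rich glycoprotein) increased by 2.68 and 2.06 on the log2 scale at 48 h.

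Chitinases, which degrade chitin and are commonly grouped with defence proteins, gave 5 members. Zm00001d003190, described as a homolog of the carrot EP3-3 chitinase, was at 36.1, 10.3 and 19.8 CPM in WW24, 240.0, 288 and 333 CPM in WS24, 13.4, 2.79 and 5.06 CPM in WW48 and 103, 104 and 112 CPM in WS48. It increased in WS48 vs WW48 (log2 3.75 ± 0.49 SE, adjusted p = 6.80e-05) and retained 37.6% of the 24 h difference. Zm00001d003191, with the same description, had means of 1.30 ± 0.213, 10.3 ± 2.73, 0.607 ± 0.246 and 2.88 ± 0.512 CPM (SD, n = 3) in WW24, WS24, WW48 and WS48. Of 3 genes described as basic chitinase, Zm00001d036370 had means of 4.72 ± 2.88, 65.5 ± 14.1, 2.08 ± 1.55 and 31.2 ± 9.20 CPM, in the same order of groups. The means were 1.24 ± 0.450, 29.4 ± 2.74, 0.369 ± 0.272 and 17.1 ± 2.91 CPM for Zm00001d036366 and 1.31 ± 0.246, 20.4 ± 4.59, 0.453 ± 0.0778 and 12.5 ± 1.35 CPM for Zm00001d027525. All 5 increased at 48 h, with log2 changes from 2.11 to 5.47. Genes with the same description may be close copies. How the counting treated reads that match more than 1 copy was not examined, so their separate values are uncertain. The defence list held 44 genes, of which 17 were called higher and 11 lower at 24 h, and a sixth member, the dirigent-like Zm00001d023575, was not called at 48 h (log2 0.48 ± 0.15 SE, adjusted p = 0.0231).

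Transport and lipid genes were represented by single genes or pairs. Zm00001d030464, of the major facilitator superfamily, was at 0.905, 0.328 and 0.579 CPM in WW24, 31.3, 30.3 and 43.7 CPM in WS24, 0.255, 0.0924 and 0.429 CPM in WW48 and 12.8, 13.7 and 12.1 CPM in WS48. It was at most 0.905 CPM in any well-watered library, and its 48 h change was log2 5.49 ± 0.34 SE, adjusted p = 1.39e-07. Another of that family, Zm00001d038179, had means of 0.984 ± 0.455, 6.68 ± 0.585, 1.19 ± 0.183 and 4.39 ± 0.334 CPM (SD, n = 3) in WW24, WS24, WW48 and WS48. Zm00001d052261, described as NIP5;1, a boric acid channel of the aquaporin family in Arabidopsis, had means of 2.24 ± 0.472, 16.1 ± 1.91, 3.49 ± 1.40 and 8.86 ± 1.70 CPM (SD, n = 3) in WW24, WS24, WW48 and WS48 and increased by 1.22 on the log2 scale, a call lost without WW48 replicate 3, where the change was 0.95. It was the only member of 5 aquaporins. Zm00001d046383 (nitrate transporter 1:2) varied little, at 1.24, 1.10 and 1.26 CPM in WW24, 6.16, 6.002 and 6.02 CPM in WS24, 1.22, 1.18 and 1.22 CPM in WW48 and 4.03, 3.29 and 4.02 CPM in WS48, and increased (log2 1.52 ± 0.15 SE, adjusted p = 7.51e-06). The lipid-transfer proteins Zm00001d033595 and Zm00001d013089 had WS24 to WW24 ratios of 46.98 and 14.04 and increased by 3.78 and 1.57 at 48 h on the log2 scale. 3-Ketoacyl-CoA synthases catalyse the first step in elongating fatty acids for waxes and suberin, and both members, Zm00001d014168 (KCS 11) and Zm00001d028406 (KCS 1), increased (log2 3.15 ± 0.33 SE, adjusted p = 9.97e-06 and log2 1.79 ± 0.45 SE, adjusted p = 0.00665).

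Cytochromes P450 are oxidoreductases of secondary metabolism and lipids, and 4 were members. Zm00001d048703 was at 2.90, 4.15 and 4.29 CPM in WW24, 24.5, 19.2 and 40.7 CPM in WS24, 2.22, 4.36 and 1.88 CPM in WW48 and 12.7, 12.1 and 9.09 CPM in WS48, and increased in WS48 vs WW48 (log2 1.88 ± 0.34 SE, adjusted p = 0.000756). Zm00001d048702 had means of 1.01 ± 0.272, 27.97 ± 8.39, 0.453 ± 0.409 and 13.96 ± 0.955 CPM (SD, n = 3) in WW24, WS24, WW48 and WS48. For Zm00001d033152 they were 2.51 ± 1.55, 18.4 ± 2.76, 3.03 ± 1.67 and 8.23 ± 1.06 CPM. The call of Zm00001d033152 was lost without WW48 replicate 3, where its log2 change was 1.04 with an adjusted p of 0.0509. The fourth, Zm00001d013830, had a significant but smaller change (log2 0.71 ± 0.15 SE, adjusted p = 0.00221) and was not called. These descriptions name families 71 and 76, and the 3 of family 71 may also be close copies with uncertain separate values.

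Among regulators of transcription, Zm00001d010380, a CCCH zinc finger protein, was at 6.58, 3.28 and 3.88 CPM in WW24, 109.8, 93.1 and 102 CPM in WS24, 3.39, 2.89 and 2.19 CPM in WW48 and 55.99, 56.04 and 63.4 CPM in WS48. Its 48 h change was log2 4.23 ± 0.21 SE, adjusted p = 2.01e-08. Zm00001d028085 (a bHLH protein) had means of 2.29 ± 0.892, 17.2 ± 0.799, 1.74 ± 0.814 and 7.43 ± 0.713 CPM (SD, n = 3) in WW24, WS24, WW48 and WS48 and increased (log2 1.98 ± 0.33 SE, adjusted p = 0.000398), as did Zm00001d022461, an ethylene-responsive element binding protein, and Zm00001d028017, an integrase-type DNA-binding protein, by 2.06 and 1.28 on the log2 scale. Zm00001d042777, a bZIP protein, was at 3.01, 0.375 and 0.386 CPM in WW24, 8.83, 7.51 and 6.67 CPM in WS24, 1.60, 2.82 and 1.15 CPM in WW48 and 4.15, 5.24 and 5.72 CPM in WS48 and its change was not called (log2 1.31 ± 0.57 SE, adjusted p = 0.0831). Of the lists that fit water stress, heat shock proteins (27 described genes), LEA proteins and dehydrins (22), NAC (11), MYB (14) and WRKY factors (10), peroxidases, catalases and GSTs (42), lipoxygenases (8) and proline metabolism (10) held 0 members. For LEA proteins and dehydrins and for lipoxygenases, a dehydrin and a lipoxygenase that met the conditions were left out. The LEA-type member Zm00001d040660 was matched by its senescence name and counted in another list. Among the heat shock genes, 20 were called higher and 6 lower in WS24 vs WW24, and none met the conditions for a peak.

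The remaining described members with high abundance had varied roles. Zm00001d008620 (metallothionein 2A, a metal-binding protein) was at 36.9, 25.8 and 21.5 CPM in WW24, 115, 137 and 161 CPM in WS24, 17.3, 32.2 and 35.6 CPM in WW48 and 72.2, 72.5 and 75.6 CPM in WS48, and increased at 48 h (log2 1.25 ± 0.23 SE, adjusted p = 0.000883), a call lost without WW48 replicate 1, where the change was 0.996. Zm00001d011144, with a DCD (development and cell death) domain, had means of 15.4 ± 0.631, 86.97 ± 2.98, 20.9 ± 4.86 and 55.5 ± 4.58 CPM (SD, n = 3) in WW24, WS24, WW48 and WS48. For Zm00001d043912, an adenine nucleotide alpha hydrolase-like protein, the means were 12.4 ± 2.26, 54.1 ± 7.07, 12.9 ± 1.67 and 34.8 ± 6.38 CPM (SD, n = 3) in WW24, WS24, WW48 and WS48. Both increased (log2 1.27 ± 0.14 SE, adjusted p = 1.24e-05 and log2 1.30 ± 0.15 SE, adjusted p = 1.99e-05). Zm00001d040660 (senescence-associated gene 21, an LEA-type protein in Arabidopsis) was the weakest in WW24 of all members, at 1.07, 0.234 and 0.214 CPM in WW24, 5.50, 5.28 and 5.65 CPM in WS24, 0.547, 1.18 and 0.429 CPM in WW48 and 2.57, 3.34 and 2.67 CPM in WS48, and increased (log2 1.87 ± 0.47 SE, adjusted p = 0.00688). Zm00001d032550, a RING/U-box protein of the kind that serves as a ubiquitin ligase, increased by 1.90 on the log2 scale. Zm00001d052961, described as root hair defective 3, a GTPase that shapes the endoplasmic reticulum in Arabidopsis, had a WS24 to WW24 ratio of 33.8 and a 48 h change of log2 4.20 ± 0.28 SE, adjusted p = 2.59e-07. Zm00001d015404 (aldehyde dehydrogenase 5F1, of the GABA shunt), Zm00001d007341 (a homolog of the ABA-induced barley gene HVA22) and Zm00001d028588 (Fes1A, a partner of HSP70 in Arabidopsis) increased by 1.55, 1.40 and 2.61 at 48 h on the log2 scale. A further 12 described members increased by 1.40 to 4.03, among them Zm00001d025352 (ferredoxin 3, an electron carrier), Zm00001d029656 (actin depolymerizing factor 6, which severs actin filaments), Zm00001d026042 (purine permease 11) and Zm00001d033585 (nucleobase-ascorbate transporter 7).

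The 5 most abundant undescribed members were also abundant in well-watered tips. Zm00001d051872, the first of them, was at 214, 158 and 144 CPM in WW24, 535, 592 and 565 CPM in WS24, 214, 269 and 160.1 CPM in WW48 and 321, 326 and 387 CPM in WS48. Its WS48 and WW48 libraries did not overlap, and its change of log2 0.56 ± 0.17 SE, adjusted p = 0.0172 was under the fold threshold. Zm00001d042216 had means of 171 ± 7.39, 408 ± 22.5, 178 ± 12.6 and 263 ± 20.4 CPM (SD, n = 3) in WW24, WS24, WW48 and WS48 and a 48 h change of log2 0.43 ± 0.09 SE, adjusted p = 0.00147. Zm00001d047087, Zm00001d015977 and Zm00001d004843 followed, with WS24 means of 254, 229 and 227 CPM and log2 changes of 0.80, 0.70 and 0.67 at 48 h. All 5 had an adjusted p below 0.05 and were not called because the changes were smaller than 1.

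Zm00001d019704 differed from these. It was at 0.842, 0.562 and 0.943 CPM in WW24, 154, 124 and 133 CPM in WS24, 0.328, 0.485 and 0.429 CPM in WW48 and 77.2, 82.1 and 84.5 CPM in WS48, which made its WS24 to WW24 ratio of 175 the highest of all members. It also had the largest 48 h change (log2 7.499 ± 0.16 SE, adjusted p = 1.57e-11), and every stressed library was at 77.2 CPM or more while every well-watered library was below 1 CPM. Of 131 undescribed members, 24 were called higher in WS48 than in WW48, and Zm00001d000229 came next at log2 4.34.

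WS48 was compared with WW48 to ask which members were still above age-matched tips after another day of stress. Roots of these 2 groups differed in length, and the study's control of about equal root length was WW24. No test of WS48 against WW24 is read here. The rule holds every WS48 and every WW48 library below all WS24 libraries, and it does not compare WS48 with WW48 directly. Members were also chosen as higher in WS24 than in WW24, that is, as raised by stress at the earlier time. The choice may therefore set part of the counts and the median below, and the values over all features are not a neutral background for them. Of 203 members, 92 (45.3%) increased and 0 decreased, beside 7.20% and 6.88% of all features tested. The median log2 change was 0.95, against 0.01 over all features, and 184 changes were positive. In 143 members all WS48 libraries lay above all WW48 libraries, in 59 the groups overlapped and in 1 all WS48 libraries lay below. Separation of libraries was not counted over all features, so these numbers describe the members and cannot be read against a background. Among described members 68 of 72 increased, and among undescribed members 24 of 131. Of the 92 calls, 77 were made in each of the 12 fits that left out 1 library. With a test against a log2 change of 1 (glmTreat), 58 increased, beside 910 of all features. DESeq2 also called 92 higher and 0 lower, beside 1907 and 1889 of all features. In the edgeR fit, 1 decrease had an unadjusted p below 0.05.

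**Figure D3:**
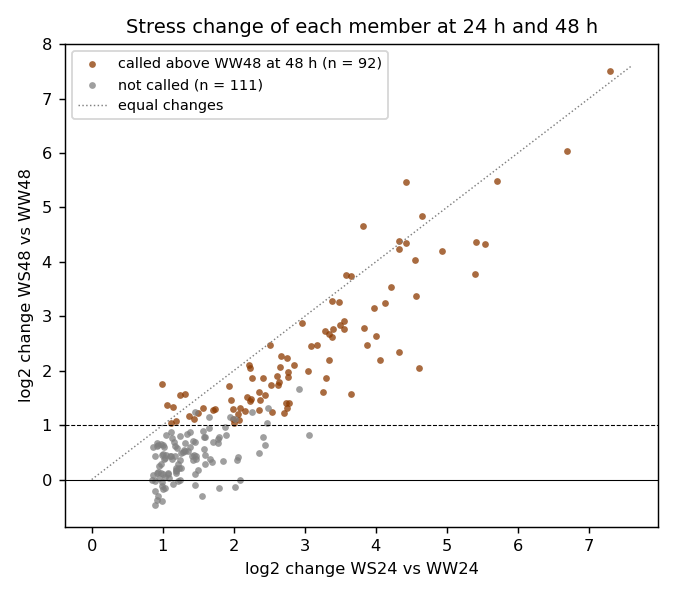
Log2 change of each member in WS48 vs WW48 (vertical axis) against WS24 vs WW24 (horizontal axis), with the 92 members called at 48 h in brown and the other 111 in grey. The dotted line marks equal changes, the dashed line a 48 h change of 1 and the solid line 0 (the rule itself holds WS48 below WS24). The highest point is Zm00001d019704, at log2 changes of 7.298 and 7.499.

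In the 92 called members the log2 change at 48 h had a median of 2.03 (1.04 to 7.499), and a median of 52.5% of the 24 h difference was retained (20.7 to 67.8%). In the 111 others the median change was 0.44, retention had a median of 21.7% (−22.8 to 56.0%), and 65 changes were smaller than 0.5 in size. Of these 111, 84 had an adjusted p above 0.05, 26 were significantly higher by less than the fold threshold, and 1 was significantly lower. The last, Zm00001d044043, was at 4.50, 3.66 and 3.88 CPM in WW24, 9.27, 7.26 and 9.77 CPM in WS24, 6.82, 6.44 and 6.04 CPM in WW48 and 5.55, 4.64 and 5.85 CPM in WS48. It was the only member whose 3 WS48 libraries all lay below WW48 (log2 −0.40 ± 0.15 SE, adjusted p = 0.0476), while its WW48 mean was also above WW24. The lowest change was that of Zm00001d022472, at 3.83, 6.44 and 5.90 CPM in WW24, 11.03, 10.2 and 11.9 CPM in WS24, 2.28, 5.195 and 3.57 CPM in WW48 and 3.48, 2.69 and 2.52 CPM in WS48, with overlapping groups at 48 h and no significance (log2 −0.47 ± 0.28 SE, adjusted p = 0.207). Zm00001d028282 and Zm00001d047647 had changes of −0.38 and −0.31 with adjusted p of 0.160 and 0.392, and their WS48 and WW48 libraries overlapped too.

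How many members stayed above WW48 went with the size of the 24 h ratio. Of 81 members with a WS24 to WW24 ratio of 2 to 3, 8 increased at 48 h, with a median log2 change of 0.43. The counts were 14 of 44 at ratios of 3 to 5 (median 0.78), 31 of 39 at 5 to 10 (1.67), 22 of 22 at 10 to 20 (2.77) and 17 of 17 above 20 (4.34). The rule fixes part of this relation, since a WS48 mean at most 1/1.5 of WS24 must lie below 2 times the WW24 mean wherever the ratio is under 3. Described members made up 2 of the 81 in the lowest class and 15 of the 17 in the highest, so the classes also differ in how many genes the study had selected at 48 h. Other features with like 24 h ratios were not counted, so the relation describes the members and may not be particular to them.

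**Figure D4:**
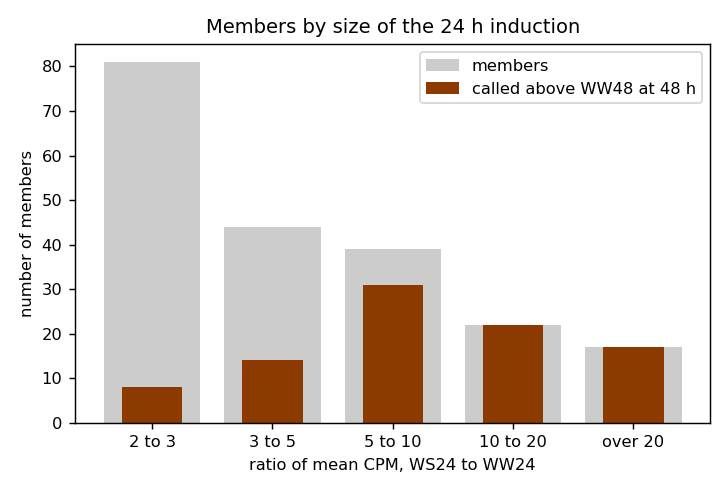
Number of members (grey bars, vertical axis from 0) by the ratio of mean CPM in WS24 to WW24 (horizontal axis), with the number called above WW48 at 48 h in brown. The brown bar rises from 8 of 81 in the lowest class to all of the 22 and 17 members in the highest classes.

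The well-watered replicates were uneven in many uncalled members. WW48 replicate 2 was the highest of its group in 76 of the 111, with a median of 1.23 times the group mean, against 0.836 and 0.961 for replicates 1 and 3. In the 92 called members the medians were 0.954, 1.03 and 0.998. The call itself used these WW48 values, so a high or uneven WW48 library helps to leave a member uncalled. The difference between the 2 classes is in part set by that. How often WW48 replicate 2 was the highest over all features was not counted. Without WW48 replicate 2 the median change over all members was 1.07 and 98 were called, beside 1824 of all features in place of 1926. Without WW24 replicate 1, 98 were called as well, beside 2008 of all features. In 8 uncalled members the log2 change was at least 1, and in all 8 WW24 replicate 1 was the highest of its group, as was WW48 replicate 2 in 7. The widest case was Zm00001d045311, at 52.3, 0.890 and 3.24 CPM in WW24, 59.3, 52.7 and 52.8 CPM in WS24, 2.35, 33.5 and 1.42 CPM in WW48 and 30.3, 30.9 and 33.4 CPM in WS48. Its WW24 replicate 1 and WW48 replicate 2 libraries lay within 1 CPM of stressed libraries of the same time or among them, the other well-watered libraries far below, and its change was log2 1.23 ± 1.14 SE, adjusted p = 0.419. Without WW48 replicate 2 it was called, at a log2 change of 3.91 with an adjusted p of 0.0280. What set these libraries apart was not tested.

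Well-watered tips were also compared between times, to show how members changed with age without stress. This comparison shares WW48 with the one above, and both of its groups entered the rule. WW24 had to be at 1/2 of the WS24 mean or less, with a mean of at least 0.5 CPM. WW48 had only to lie below every WS24 library and had no such floor. The rule thus treats the 2 groups unequally, and the shares over all features are not a neutral background for the counts below. Of 203 members, 3 (1.48%) increased and 7 (3.45%) decreased, beside 0.789% and 0.191% of all features. The median log2 change was −0.22, against 0.00 over all features, with 130 negative and 73 positive. Without WW24 replicate 1 the numbers were 7 higher and 8 lower (221 and 54 of all features). Without WW24 replicate 2 they were 1 higher and 7 lower (85 and 40 of all features). Without WW24 replicate 3 they were 2 higher and 4 lower (91 and 24 of all features). Without WW48 replicate 1 they were 1 higher and 3 lower (71 and 28 of all features), so these small counts depended on single well-watered libraries.

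Those that increased were the PP2C Zm00001d028574 (log2 1.33 ± 0.28 SE, adjusted p = 0.0324), the lipid-transfer protein Zm00001d013089 (log2 1.29 ± 0.25 SE, adjusted p = 0.0236) and Zm00001d052343 (log2 1.25 ± 0.19 SE, adjusted p = 0.00993). Zm00001d052343 was at 8.46, 6.49 and 5.75 CPM in WW24, 25.9, 24.98 and 27.8 CPM in WS24, 17.4, 20.8 and 11.1 CPM in WW48 and 15.1, 15.9 and 17.6 CPM in WS48. Its WW48 libraries reached its WS48 level, so the change in WS48 vs WW48 was −0.15 although WS48 stood above WW24. The decreases included the basic chitinase Zm00001d027525 (log2 −1.54 ± 0.25 SE, adjusted p = 0.0111), the subtilase Zm00001d039129 (log2 −1.70 ± 0.34 SE, adjusted p = 0.0261), a serine protease, and the O-methyltransferase Zm00001d049181 (log2 −1.37 ± 0.25 SE, adjusted p = 0.0179). The other 4 were Zm00001d047981, Zm00001d046998, Zm00001d048634 and Zm00001d010394, with log2 changes of −1.74, −1.16, −1.04 and −1.11. Zm00001d047981 was at 12.8, 21.2 and 14.1 CPM in WW24, 31.9, 34.9 and 38.8 CPM in WS24, 3.66, 4.66 and 6.33 CPM in WW48 and 18.7, 13.999 and 20.9 CPM in WS48, and its WS48 libraries overlapped its WW24 libraries while lying above all WW48 libraries. For such genes the increase in WS48 vs WW48 (1.75 here) went together with a lower age-matched control.

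Tissue markers were taken by words in the same descriptions, so most had been selected by the study for changes in these libraries. Their summed levels differed between the groups, which in part follows from that selection. Sums that include members also carry the rule's choice of high WS24 values. The summed abundance of 17 described expansins, of which 3 were members, was 279 to 321 CPM in WW24, 989 to 1310 in WS24, 258 to 292 in WW48 and 800 to 864 in WS48. For 5 xylem and secondary wall genes, 3 of them members, it was 8.90 to 16.5, 122 to 132, 11.3 to 17.7 and 67.7 to 79.9 CPM. For 2 genes matched by root hair words, 1 of them a member, it was 7.49 to 13.2, 48.9 to 61.9, 6.87 to 7.64 and 41.1 to 44.7 CPM. That member was Zm00001d052961, matched by the name root hair defective 3, so its level need not mark root hair cells. Neither dividing cell markers (8 genes) nor endodermis barrier genes (3) included a member. The former summed to 108 to 117, 149.9 to 173, 109.7 to 127 and 134 to 135 CPM, the latter to 2.51 to 3.83, 17.9 to 22.2, 3.32 to 4.09 and 11.8 to 13.9 CPM, in the same order of groups. The dividing cell markers were split, with 3 called higher and 4 lower in WS24 vs WW24 and 3 higher and 5 lower in WS48 vs WW48. No marker was at 0 in all libraries, which also follows in large part from the selection of described genes. The part of tissue composition in the members' values was not tested.

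The thresholds separated neighbours by little. Zm00001d022461 and Zm00001d032550 were just inside the condition on WS48, at 1.5003 and 1.5004 times, and Zm00001d005978 and Zm00001d029098 just outside it, at 1.499 and 1.495. At the 24 h fold, Zm00001d035638 and Zm00001d016846 were inside at 2.00 and 2.01 times WW24 and Zm00001d016177 and Zm00001d017516 outside at 1.99 and 1.96. For the WS24 level, Zm00001d009971 and Zm00001d036750 were inside at 5.17 and 5.21 CPM and Zm00001d003212 and Zm00001d031808 outside at 4.98 and 4.97 CPM. For the WW24 level, Zm00001d040660 and Zm00001d033585 were inside at 0.507 and 0.533 CPM and Zm00001d033552 and Zm00001d031158 outside at 0.499 and 0.499 CPM. Zm00001d045311 and Zm00001d007180 cleared the other libraries by factors of 1.01 and 1.01, which Zm00001d038449 and Zm00001d022468 missed at 0.985 and 0.971. Failing 1 condition only were 313 features on the fold over WS48, 75 on the WW24 level, 73 on the WS24 level, 47 on the fold over WW24 and 42 on overlap.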

How the data were processed

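RNA from 12 libraries was measured, 3 in each of 4 groups taken from the sample titles. Raw counts of reads per gene were deposited by the authors, from strand-specific paired-end reads aligned with HISAT2 (1.0) to B73 RefGen_v4 and an assembly specific to FR697, and counted over exons with HTSeq (0.6.1), as the study and the submitters' processing notes state. HTSeq's strand setting was not given in the sources used here, and genes that overlap or lie antisense are therefore uncertain. The 12 columns of values normalized by the authors and rounded, a score by its unit, were not used.

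Summary rows of the counter (reads not aligned, ambiguous and the like) were kept out of CPM totals and tests. Printed CPM carry no TMM factor. Counts were fitted with edgeR 4.0.16 in R 4.3.3 (filterByExpr, minimum count 10, leaving 26746 of 42976 features; TMM factors 0.926 to 1.06; 1 mean per group over all 12 libraries; biological coefficient of variation 15.9%). Contrasts used the quasi-likelihood test with Benjamini-Hochberg adjustment. The SE is the change divided by the square root of F, an approximation. Procedures were tested on simulated data. No replicate pair agreed within sampling noise (chi-square per gene 5.48 to 34.5).

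The 3 identifiers Zm00001d037894, Zm00001d033623 and Zm00001d016684 were set aside by the choice of members; 2 met the conditions. Members, the 27 lists and the named genes were chosen with earlier results of these data known. Lists were formed by words in the study's supplementary descriptions, which exist for 1583 nuclear genes; no values of those tables were used. Named were the 12 most abundant described and 6 undescribed members, the 6 highest 24 h ratios, up to 3 members per list, the 4 highest and 4 lowest changes in WS48 vs WW48, the 4 lowest adjusted p in WW48 vs WW24 and the neighbours of each threshold, 60 members in all; other members were named after their values were seen. The reference gene table of another build matched 0 nuclear identifiers and gave no names or sequences. Alternatives were other scalings, DESeq2 1.42.0, no filter, other thresholds, a replicate block, a fit of 2 groups, and each library left out.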

Additional observations from a re-analysis of the deposited data

Results flagged for a closer look

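Reads not aligned made up 23.1% of all reads the counter reported in WS24 replicate 3, above the 12.7 to 15.0% of the other 11 libraries, including every well-watered library. These reads lie outside the gene counts, and no comparison above used them.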

How the results depend on the processing

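The numbers of members increased (92) and decreased (0) in WS48 vs WW48 stayed within 1.5 times under both other scalings, DESeq2, no filter, the 2-group fit and the replicate block. A test against a log2 change of 1 gave 58 increased, beside 910 of 26746 features in place of 1926. Adjusted p alone gave 1 decreased member, with 5261 features higher and 5488 lower. Without TMM factors the median of all features moved to 0.13, and 97 members increased, beside 2291 of all features. Leaving out 1 library gave 84 to 98 increased and 0 decreased, with a median log2 change of 0.84 to 1.07. Beside these, 1707 to 2008 of all features were called higher and 1621 to 1942 lower. In WW48 vs WW24 (3 increased, 7 decreased) DESeq2 gave 6 and 12 (369 and 102 of all features, in place of 211 and 51), adjusted p alone 5 and 12 (501 and 191), the test against a log2 change of 1 gave 0 and 0 (0 and 1), and the 2-group fit 0 and 2 (42 and 17). Leaving out 1 library gave 1 to 7 increased and 3 to 8 decreased, with a median from −0.36 to −0.15. Beside these, 71 to 333 of all features were called higher and 24 to 62 lower. The causes were not tested. The rule gave 87 members with at least 2 times WS48, 182 on TMM-adjusted CPM and 183 to 259 without 1 library. Same-numbered libraries correlated from −0.50 to 0.11, so the numbers did not pair samples. Differently numbered libraries correlated from −0.34 to 0.48, and whether some of these shared an experiment was not tested. With the replicate block, 92 members increased and 0 decreased in WS48 vs WW48 (1873 and 1768 of all features). In WW48 vs WW24 the numbers were 2 and 4 (117 and 33 of all features). Of 1200 single-gene values for named members in WS48 vs WW48, 1174 kept their side of the threshold and none changed direction among calls. Zm00001d036750 (log2 1.40) missed an adjusted p of 0.05 without WW48 replicate 1 or 3 or WS48 replicate 1 or 3. Power by depth was not tested.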
